A study of Mus musculus with 9 samples.

Results

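Immediate early genes are switched on within minutes of a stimulus without new protein synthesis, and several of them also respond to stress and to cell handling. Here 10 such genes, Fos, Fosb, Jun, Junb, Egr1, Egr2, Klf4, Atf3, Socs3 and Hspa1a, were followed in stromal cells sorted from mouse bone marrow. Members were the rows of the expression table that pair with 1 gene symbol from this set: 11 rows for the 10 genes, since Socs3 has 2 rows, out of 21789 rows with 1 symbol (19938 genes). One further row pairs with both Hspa1a and Hspa1b and lies outside the set.

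The study comprised 9 arrays of the Affymetrix Mouse Gene ST 1.0 design, hybridised with RNA of C57Bl/6 strain mice. The sorted cells lacked CD45 and lineage markers and carried CD54 and BP1. The YFP-negative group (1 array, 2300 cells) and the YFP-positive group (3 arrays) came from reporter mice labelled IL7-Cre Transgenic/Rosa-eYFP hetero, in which Cre under Il7 control switches on YFP, so that YFP reports present or past Il7-Cre activity. Cells of the same gate from C57Bl/6J mice without the reporter, here called wild-type CD54+BP1+, filled 3 arrays, and total bone marrow of C57Bl/6 mice filled 2 arrays. Sorted cells came from mice 6 to 12 weeks old, at 1800 to 10000 cells a sample, whereas 10 ng of RNA was used for total marrow, so that sorting and input differ between sorted cells and total marrow together with cell type. RNA was amplified with a whole-transcriptome kit (NuGEN Ovation Pico) in every sample. Values are log2 signals from the authors' RMA summary, and a level is comparable across arrays for 1 row but not between rows.

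Fos, Fosb, Jun and Junb encode subunits of the AP-1 transcription factor, in which a Fos protein pairs with a Jun protein. Egr1 and Egr2 encode zinc finger factors induced by serum and growth factors, and Egr2 and Klf4 are also known in macrophages and monocytes. Atf3 encodes a stress-induced repressor of the CREB family, Socs3 encodes a feedback inhibitor of STAT3 signalling through the gp130 cytokine receptor, and Hspa1a encodes an inducible HSP70 chaperone under heat shock factor control.

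Promoter sequence was matched for 9 of the 10 genes in RefSeq windows of 300 bases around the annotated start (GRCm38.p6); Egr1 is named only. Both strands were searched. The core of the CREB and ATF site, TGACG, lay in the windows of 6 of 9 genes (Fos, Fosb, Junb, Egr2, Klf4 and Atf3), against 23% of 27025 genes. The serum response factor's CArG box lay in 1 of 9 (Egr2; 1.81% of all genes), the AP-1 letters TGANTCA in 0 of 9 (8.97%), the heat shock letters GAANNTTC in 2 of 9 (Jun and Hspa1a; 9.04%) and the STAT letters TTCNNNGAA in 1 of 9 (Socs3; 9.55%). No match of one motif overlapped a match of another in these genes. The stretches below show matches in these 9 genes, each 5′ to 3′ on the gene's strand, with the matched letters in capitals (CGTCA is TGACG read on the other strand, and the runs of 10 capitals in the 2 Egr2 stretches, upstream of different annotated starts, are CArG boxes).
Fos, chr12:85473743-85473846, plus strand: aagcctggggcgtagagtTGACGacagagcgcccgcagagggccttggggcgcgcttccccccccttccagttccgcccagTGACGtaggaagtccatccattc
Fosb, chr7:19310083-19310123, minus strand: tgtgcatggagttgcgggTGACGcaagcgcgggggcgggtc
Junb, chr8:84978832-84978872, minus strand: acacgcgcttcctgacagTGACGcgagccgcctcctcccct
Jun, chr4:95052325-95052368, minus strand: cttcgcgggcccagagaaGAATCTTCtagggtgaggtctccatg
Egr2, chr10:67537476-67537521, plus strand: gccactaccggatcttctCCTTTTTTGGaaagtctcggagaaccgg
Egr2, chr10:67537740-67537836, plus strand: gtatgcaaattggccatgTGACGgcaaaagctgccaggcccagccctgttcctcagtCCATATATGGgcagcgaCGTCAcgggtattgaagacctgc
Klf4, chr4:55532685-55532725, minus strand: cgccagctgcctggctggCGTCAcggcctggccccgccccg
Atf3, chr1:191183334-191183358, minus strand: aagctattaatagcattaCGTCAgc
Socs3, chr11:117969494-117969538, minus strand: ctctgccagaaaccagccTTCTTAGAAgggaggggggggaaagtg
Hspa1a, chr17:34972235-34972278, minus strand: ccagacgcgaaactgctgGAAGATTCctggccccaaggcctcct
A match describes these letters in this window and shows no binding. The lack of a match does not show that a gene lacks such a site, since sequence outside the window and variant letters were not searched.

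Before the genes, the samples were checked. The reticular stromal markers, among them Lepr and Cxcl12, were called higher than in total marrow in 12 of 12 genes in each sorted group, and their mean log2 level was 10.72 to 10.98 in YFP-positive arrays and 10.86 to 10.98 in wild-type CD54+BP1+ arrays, against 4.29 and 4.39 in total marrow. Mean levels of 14 neutrophil markers were 4.39 to 5.75 in YFP-positive arrays and 3.94 to 4.87 in wild-type CD54+BP1+ arrays, against 11.19 and 11.25 in total marrow. Those of 10 monocyte and macrophage markers were 4.21 to 4.73 and 3.87 to 4.18 in these sorted groups, against 8.18 and 8.41 in total marrow. As deposited, the YFP-negative array stood apart, with a median of 3.46 over all rows tested against 4.51 to 4.60 on the other 8 arrays, so its comparisons were made after cyclic loess normalization of the 9 arrays and come last. The labels do not say whether arrays of a group come from separate animals, so p-values measure the spread between these samples, which may be technical, and with 1 to 3 arrays a group the number of arrays limits the precision.

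Egr2, Klf4 and Atf3 were lower in sorted stroma than in total marrow, by 7.67-fold to 12.5-fold (for Atf3 in YFP-positive cells a lower bound), while Socs3 was higher, by 5.35-fold to 6.66-fold. Fos, Fosb, Jun, Junb, Egr1 and Hspa1a did not pass the test in either sorted group. Calls came from a limma fit of all 9 arrays, at a Benjamini-Hochberg adjusted p under 0.05 over the 21789 rows. In YFP-positive cells against total marrow 5 of 11 member rows were called, 2 higher and 3 lower, where 29.5% of all rows were called (11.0% higher, 18.5% lower). In wild-type CD54+BP1+ cells against total marrow 5 of 11 were called, 2 higher and 3 lower, against 24.3% of all rows (10.4% higher, 13.9% lower). The groups did not overlap in 7 of 11 member rows in each comparison, against 59.8% of all rows in the first and 53.6% in the second. Both comparisons use the same 2 total marrow arrays, so their values stand side by side and are not independent of each other.

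Egr2 had log2 levels of 4.94, 5.17 and 5.29 in YFP-positive arrays and 6.00, 5.71 and 5.24 in wild-type CD54+BP1+ arrays, against 8.87 and 8.30 in total marrow. All 6 sorted arrays lay more than 2 log2 units below both marrow arrays. The difference from total marrow was −3.46 ± 0.26 (SE) in YFP-positive cells (adjusted p = 3.8e-05, limma) and −2.94 ± 0.26 in wild-type CD54+BP1+ cells (adjusted p = 9.3e-05, limma).

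Klf4, a Krüppel-like factor required for inflammatory monocytes in mice, had levels of 4.28, 4.44 and 5.31 in YFP-positive arrays and 5.08, 5.22 and 5.22 in wild-type CD54+BP1+ arrays, against 8.17 and 8.47 in total marrow. The groups did not overlap. The difference from total marrow was −3.65 ± 0.29 in YFP-positive cells (adjusted p = 5.4e-05, limma) and −3.15 ± 0.29 in wild-type CD54+BP1+ cells (adjusted p = 0.00012, limma).

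Atf3 had levels of 3.84, 4.09 and 4.60 in YFP-positive arrays and 5.07, 5.08 and 3.84 in wild-type CD54+BP1+ arrays, against 7.39 and 7.84 in total marrow. Every sorted array lay below both marrow arrays, with wild-type CD54+BP1+ replicate 3 apart from the other two of its group. The difference was −3.44 ± 0.41 in YFP-positive cells (adjusted p = 0.00052, limma) and −2.95 ± 0.41 in wild-type CD54+BP1+ cells (adjusted p = 0.0012, limma). The YFP-positive mean of 4.17 lay below the median of all deposited values, 4.43, so that difference is read as a lower bound on this scale, as is any difference whose lower group lies below that median. Against total marrow, 12 of 14 neutrophil and 10 of 10 monocyte and macrophage markers were also lower in YFP-positive cells, and 13 of 14 and 10 of 10 in wild-type CD54+BP1+ cells. The fall was not particular to myeloid markers. In each of these groups 9 of 10 B lineage (1 higher), 10 of 10 erythroid and 4 of 4 megakaryocyte markers were lower. Of T and NK cell markers, 5 of 8 were lower in YFP-positive cells and 6 of 8 in wild-type CD54+BP1+ cells. The part of these blood cell types in the lower Egr2, Klf4 and Atf3 was not tested, and in bulk samples fewer cells of a type and less RNA per cell cannot be told apart.

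Socs3 was the member called higher in sorted stroma, on both of its rows. Row 10393449 had levels of 8.57, 7.25 and 8.43 in YFP-positive arrays and 8.31, 8.83 and 7.82 in wild-type CD54+BP1+ arrays, against 6.02 and 5.15 in total marrow. Row 10383010 had 8.21, 7.26 and 9.53 in YFP-positive arrays and 8.17, 8.55 and 7.71 in wild-type CD54+BP1+ arrays, against 5.80 and 5.65 in total marrow. On both rows the lowest sorted array, YFP-positive replicate 2, still lay above both marrow arrays.

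The difference on row 10393449 was 2.50 ± 0.47 in YFP-positive cells (adjusted p = 0.0059, limma) and 2.74 ± 0.47 in wild-type CD54+BP1+ cells (adjusted p = 0.0040, limma). On row 10383010 it was 2.61 ± 0.58 in YFP-positive cells (adjusted p = 0.012, limma) and 2.42 ± 0.58 in wild-type CD54+BP1+ cells (adjusted p = 0.019, limma). The call on row 10383010 was lost in several alternatives. Without total marrow replicate 1 or 2 the adjusted p was 0.072 and 0.077 in YFP-positive cells, and 0.100 and 0.113 in wild-type CD54+BP1+ cells, at differences of 2.35 to 2.69. It was also lost without wild-type CD54+BP1+ replicate 1 (adjusted p = 0.054) or 2 (adjusted p = 0.061) in the wild-type comparison, with the replicate number as a block there (adjusted p = 0.068), and with no moderation of the variances in YFP-positive (adjusted p = 0.055) and wild-type CD54+BP1+ cells (adjusted p = 0.082). Row 10393449 lost its call in YFP-positive cells without total marrow replicate 2 (adjusted p = 0.057), and the number of member rows called there was then 3.

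**Figure D1:**
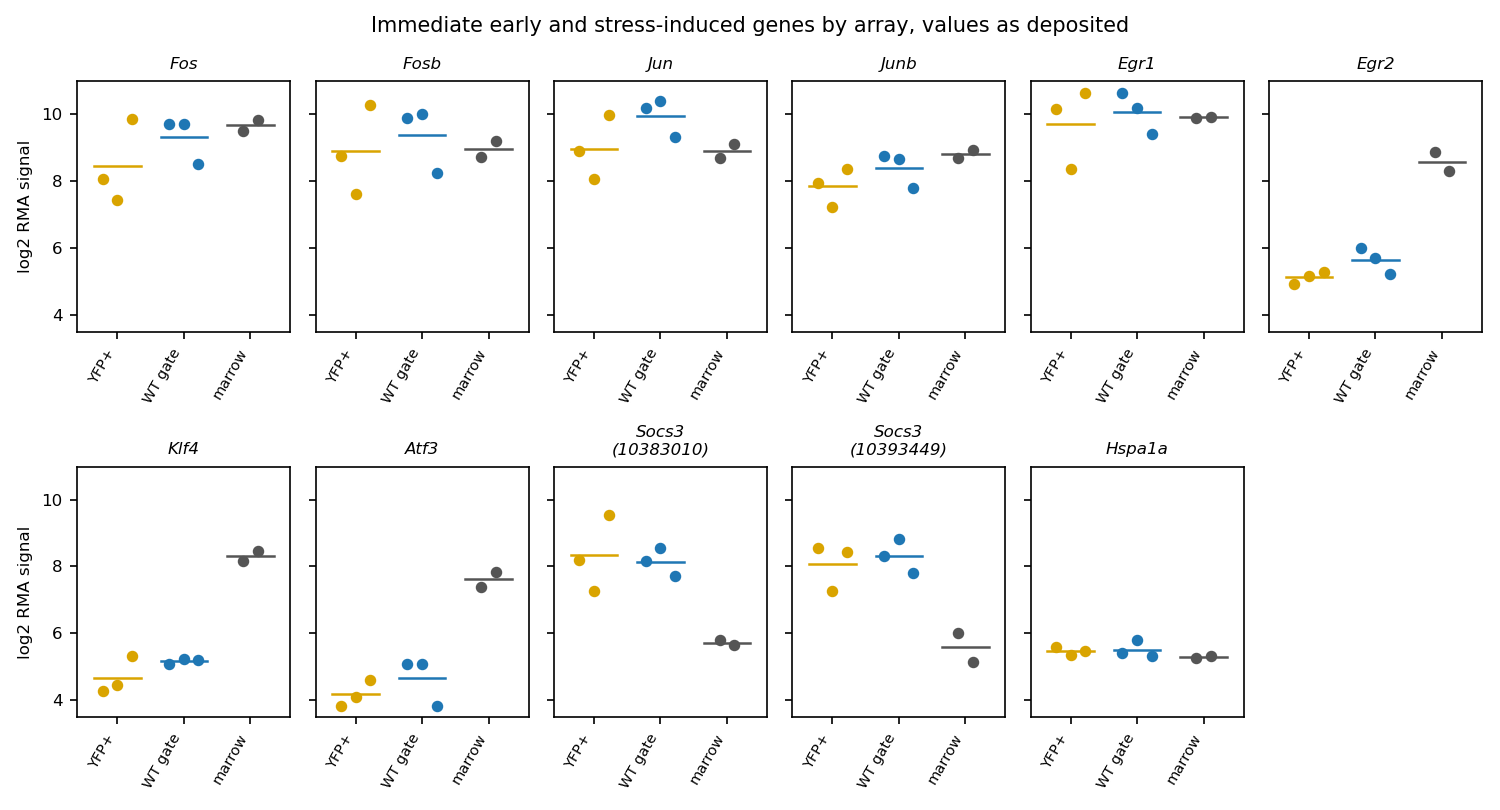
Log2 RMA signal (vertical axis, as deposited) of the 11 member rows on each array (points) of YFP-positive cells (YFP+), wild-type CD54+BP1+ cells (WT gate) and total marrow (marrow), left to right by replicate number, with group means as lines. Egr2, Klf4 and Atf3 lie below marrow on all 6 sorted arrays and Socs3 lies above it on both rows, while Fos, Fosb, Jun, Junb and Egr1 overlap the marrow values in at least 1 sorted group.

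The AP-1 genes and Egr1 passed the test in neither sorted group against total marrow, with wide intervals. Fos had levels of 8.08, 7.45 and 9.85 in YFP-positive arrays and 9.73, 9.72 and 8.51 in wild-type CD54+BP1+ arrays, against 9.51 and 9.83 in total marrow. In YFP-positive cells 2 arrays lay below marrow and replicate 3 lay just above it. The difference was −1.22 (95% interval −2.81 to 0.38, adjusted p = 0.22, limma) in YFP-positive cells and −0.35 (−1.95 to 1.24, adjusted p = 0.82, limma) in wild-type CD54+BP1+ cells. Without YFP-positive replicate 3, Fos was called lower in YFP-positive cells, at −1.91 ± 0.45 (adjusted p = 0.020, limma).

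Fosb, whose product pairs with Jun proteins as Fos does, had levels of 8.76, 7.62 and 10.29 in YFP-positive arrays and 9.90, 10.01 and 8.24 in wild-type CD54+BP1+ arrays, against 8.74 and 9.21 in total marrow. Both sorted groups spanned the marrow values. The difference was −0.08 (95% interval −1.94 to 1.79) in YFP-positive cells and 0.41 (−1.45 to 2.28) in wild-type CD54+BP1+ cells.

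Jun, the partner that can also form homodimers, had levels of 8.90, 8.05 and 9.98 in YFP-positive arrays and 10.18, 10.39 and 9.32 in wild-type CD54+BP1+ arrays, against 8.69 and 9.12 in total marrow. All 3 wild-type CD54+BP1+ arrays lay above marrow, and the YFP-positive arrays overlapped it. The difference was 0.07 (95% interval −1.20 to 1.35, adjusted p = 0.93, limma) in YFP-positive cells and 1.06 (−0.22 to 2.33, adjusted p = 0.24, limma) in wild-type CD54+BP1+ cells.

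Junb, which encodes a Jun protein with weaker transactivation, had levels of 7.96, 7.24 and 8.36 in YFP-positive arrays and 8.77, 8.66 and 7.80 in wild-type CD54+BP1+ arrays, against 8.69 and 8.93 in total marrow. The YFP-positive arrays all lay below marrow, and those of wild-type CD54+BP1+ cells overlapped it. The difference was −0.96 (95% interval −1.85 to −0.06, unadjusted p = 0.039, adjusted p = 0.10, limma) in YFP-positive cells and −0.40 (−1.296 to 0.492, adjusted p = 0.58, limma) in wild-type CD54+BP1+ cells.

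Egr1 had levels of 10.15, 8.36 and 10.64 in YFP-positive arrays and 10.63, 10.20 and 9.43 in wild-type CD54+BP1+ arrays, against 9.91 and 9.91 in total marrow. Both sorted groups spanned the marrow values. The difference was −0.19 (95% interval −1.69 to 1.31) in YFP-positive cells and 0.18 (−1.32 to 1.68) in wild-type CD54+BP1+ cells. The intervals of Fosb and Egr1 reach past 1 log2 unit on both sides of 0, so equal levels are not shown.

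**Figure D2:**
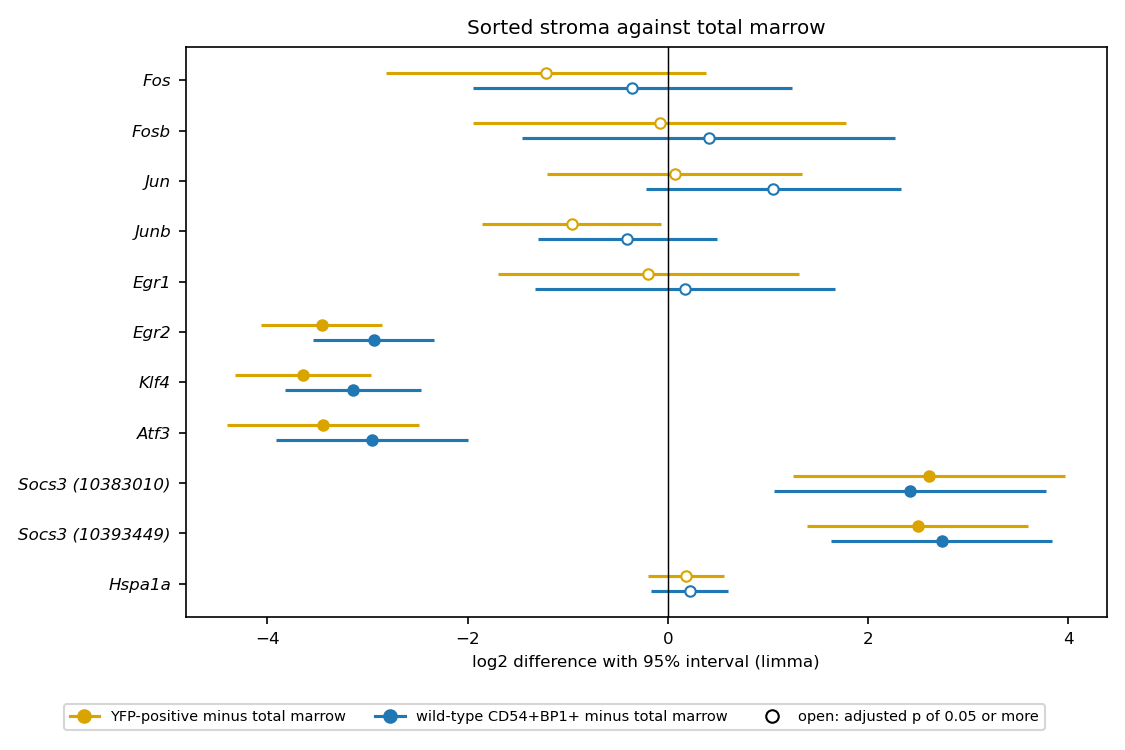
Log2 difference from total marrow (horizontal axis) with its 95% interval from limma for each member row, in YFP-positive cells and in wild-type CD54+BP1+ cells; filled points passed the adjusted p threshold of 0.05. Egr2, Klf4 and Atf3 stand 2.94 to 3.65 below 0, both Socs3 rows stand 2.42 to 2.74 above it, and the open points are the 6 members not called.

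Hspa1a differed little between these arrays. Its row had levels of 5.60, 5.35 and 5.46 in YFP-positive arrays and 5.41, 5.79 and 5.32 in wild-type CD54+BP1+ arrays, against 5.25 and 5.32 in total marrow. The difference was 0.18 (95% interval −0.20 to 0.57, adjusted p = 0.43, limma) in YFP-positive cells and 0.22 (−0.16 to 0.60, adjusted p = 0.45, limma) in wild-type CD54+BP1+ cells. The row shared by Hspa1a and Hspa1b, whose promoter windows differ at 4 of 300 bases, had levels of 6.01, 6.05 and 6.76 in YFP-positive arrays and 5.95, 6.76 and 6.06 in wild-type CD54+BP1+ arrays, against 6.16 and 5.98 in total marrow, and was not called in any of the 5 comparisons made.

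The arrays of each sorted group differed more in Fos, Fosb, Jun and Egr1 than in most genes. The SD within groups, pooled over the 3 replicated groups, was 1.06 log2 units for Fosb, 0.91 for Fos, 0.85 for Egr1 and 0.72 for Jun, larger than in 99.4%, 98.9%, 98.6% and 97.4% of all rows, and than in 99.3%, 98.7%, 98.9% and 97.4% of the 1000 rows closest in mean level. For Socs3 it was 0.77 on row 10383010 and 0.62 on row 10393449, larger than in 98% and 95.4% of all rows. For Atf3 and Junb it was larger than in 92.4% and 90.7%. For Klf4, Egr2 and Hspa1a that share was 80.2%, 74.7% and 42.5%. Among rows of like level the share was 95% for Socs3 row 10383010 and 88% for row 10393449. It was 90.8% for Atf3, 81.6% for Junb, 63.1% for Klf4, 49.9% for Egr2 and 19.8% for Hspa1a. The 2 marrow arrays did not share the spread of Egr1: their SD was 0.0052, a range larger than in 3.24% of all rows. Other members did differ between them. The marrow range was larger than in 99.2% of all rows for Socs3 row 10393449 and 96% for Egr2. That share was 92.8% for Fosb, 92.1% for Atf3 and 91.4% for Jun, and from 25.8% (Hspa1a) to 83% (Fos) for the remaining rows. For Fos the YFP-positive arrays alone spanned 2.40 log2 units, and for Fosb 2.67.

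The same arrays were high or low across members. YFP-positive replicate 2 was the lowest of its group in 8 of 11 member rows, where it was lowest in 31.6% of all rows, and YFP-positive replicate 3 was the highest in 9 of 11, where it was highest in 45.2% of all rows. Wild-type CD54+BP1+ replicate 3 was the lowest of its group in 10 of 11, against 37.1% of all rows. Among other immediate early genes, such as Btg2 and Zfp36, YFP-positive replicate 2 was lowest in 18 of 27 and wild-type CD54+BP1+ replicate 3 was lowest in 21 of 27. Integrated stress, heat shock and gp130 genes, read from lists below, did not share this order. In them YFP-positive replicate 3 was lowest in 11 of 15, 8 of 17 and 11 of 18, against 29.6% of all rows. Replicate 2 was lowest in 4 of 15, 8 of 17 and 4 of 18, and wild-type CD54+BP1+ replicate 3 in 4 of 15, 4 of 17 and 3 of 18. As deviations from the group means over the 8 arrays of these 3 groups, Fos, Fosb, Jun, Junb and Egr1 correlated at 0.85 to 0.991 in all 10 pairs. This was not particular to them. Socs3 row 10383010 correlated with these genes at 0.841 to 0.946, and row 10393449 at 0.568 to 0.770. These correlations describe 8 arrays that share group means and labelling, and 1.38% of 12967 rows of sufficient level exceeded 0.9 with Fosb.

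Other measures of the same arrays follow. YFP-positive replicate 3, high in the members, had the lowest array quality weight of the 8 arrays (0.315), against 0.621 for replicate 1 and 1.09 for replicate 2. Its mean neutrophil marker level was 4.39, against 5.75 and 5.60 in replicates 1 and 2, and its B lineage marker level was 4.86, against 4.37 and 4.57. The reticular markers were lowest on it in 9 of 12 genes (mean 10.72, against 10.98 and 10.98). Wild-type CD54+BP1+ replicate 3, low in the members, had a weight of 0.929, against 1.21 and 1.42. Its neutrophil marker level was 3.94, against 4.87 and 4.10, its erythroid marker level was 4.66, against 4.05 and 4.08, and its reticular marker level was 10.98, against 10.86 and 10.88. Within its group, the mean neutrophil marker level was thus lowest both on an array high in the members and on an array low in them. In each sorted group, the mean monocyte and macrophage marker level was lowest on the array low in the members. It was 4.21 on YFP-positive replicate 2 and 3.87 on wild-type CD54+BP1+ replicate 3. The highest YFP-positive level, 4.73, was on replicate 1. Of these 10 genes, 6 were lowest on YFP-positive replicate 2 and 6 highest on replicate 3. In wild-type CD54+BP1+ cells, 4 were lowest on replicate 3 and 5 on replicate 2. The part of blood cell types in this order was not tested. Sorting and dissociation times are not given in the sources used here, and the part of cell handling in these differences was not tested.

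**Figure D3:**
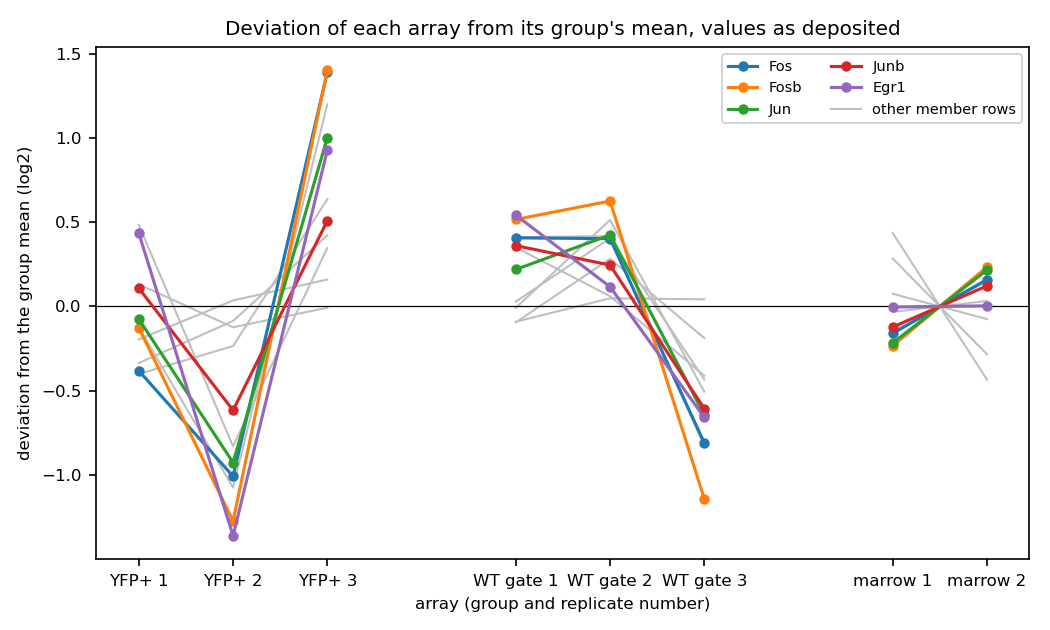
Deviation of each array from its group's mean in log2 units (vertical axis) for the 11 member rows, by array (horizontal axis: YFP-positive cells, wild-type CD54+BP1+ cells as WT gate, and total marrow). Fos, Fosb, Jun, Junb and Egr1 (coloured) lie low together on YFP-positive replicate 2 and wild-type CD54+BP1+ replicate 3 and high on YFP-positive replicate 3. Grey lines are the other rows, of which Socs3 row 10383010 is also lowest and highest of its sorted groups on these arrays.

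No member passed the test between the reporter's YFP-positive cells and wild-type CD54+BP1+ cells. Of 11 member rows 0 were called by limma, as were 0% of all rows, and 0 reached an unadjusted p under 0.05, against 14.9% of all rows. The groups overlapped in all 11 rows, whereas 21.8% of all rows did not overlap. The difference was below 0 in 10 of 11 rows, with 43.4% of all rows below 0, and its median over the member rows was −0.49, against 0.05 over all rows. These rows are not independent: both Socs3 rows are counted, and Fos, Fosb, Jun, Junb and Egr1 moved together between arrays, so single arrays can set the count. The size of the difference ranged from −0.98 for Jun (95% interval −2.12 to 0.16) to 0.19 for Socs3 row 10383010 (−1.02 to 1.41). The smallest adjusted p was that of Egr2, at −0.52 (−1.06 to 0.02, adjusted p = 0.34, limma). Jun (adjusted p = 0.38, limma) and Klf4, at −0.50 (−1.11 to 0.11, adjusted p = 0.39, limma), came next. Because wild-type CD54+BP1+ cells were not split by YFP, this comparison sets reporter-marked cells against the whole gate in mice without the reporter.

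In the single YFP-negative array, the AP-1 genes, Egr1, Egr2, Klf4 and Atf3 lay within or near the range of YFP-positive arrays, and Hspa1a lay above it. With 1 array the fit borrows its spread from the replicated groups, and batch and group cannot be told apart for it. After cyclic loess, 1 of 11 member rows was called against YFP-positive cells, higher, where 4.10% of all rows were called (2.71% higher, 1.39% lower). Its reticular marker level was 10.78, against 10.89 to 10.96 in YFP-positive arrays, and its neutrophil marker level 4.76, against 4.41 to 5.68. Hspa1a had a level of 6.73 in the YFP-negative array, against 5.55, 5.28 and 5.45 in YFP-positive arrays. The difference was 1.305 ± 0.186 (adjusted p = 0.020, limma). As deposited, without rescaling, the levels were 5.48 in the YFP-negative array and 5.60, 5.35 and 5.46 in YFP-positive arrays, a difference of 0.01 (adjusted p = 0.96, limma) beside a median difference of −0.91 over all rows. Hspa1a was called on the values rescaled by cyclic loess, by quantiles or by array medians, and not on the values as deposited. On the loess values the call was also lost with no moderation of the variances (adjusted p = 0.051) and with the replicate number as a block (adjusted p = 0.099), so 3 of 17 alternatives ended it. The row shared with Hspa1b was 0.61 ± 0.41 higher after loess without passing the test (adjusted p = 0.48, limma).

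The other members were not called, and 8 of 11 rows lay inside the YFP-positive range, while 62.2% of all rows lay outside it. Socs3 row 10393449 had a level of 9.66 in the YFP-negative array, against 8.46, 7.19 and 8.55 in YFP-positive arrays (difference 1.60 ± 0.59, adjusted p = 0.18, limma). Its row 10383010 had 8.01, against 8.10, 7.19 and 9.64, a difference of −0.30 ± 0.79, so the 2 rows differed in sign. Junb had 7.14 in the YFP-negative array, just under the 7.86, 7.19 and 8.50 of YFP-positive arrays (difference −0.71 ± 0.52, adjusted p = 0.48, limma).

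Fos had 9.41, against 7.99, 7.43 and 10.01 in YFP-positive arrays. Fosb had 9.10, against 8.68, 7.59 and 10.45. Jun had 9.87, against 8.82, 8.03 and 10.15. For these AP-1 genes the YFP-negative value lay inside the YFP-positive range.

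Egr1 had 9.26, against 10.07, 8.35 and 10.82 in YFP-positive arrays. Egr2 had 5.07, against 4.85, 5.09 and 5.31. Klf4 had 4.86, against 4.22, 4.38 and 5.31. Atf3, at 4.0 against 3.82, 4.05 and 4.55, also lay inside the range, as did the other 3.

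Against total marrow, the YFP-negative array showed 5 of 11 member rows called after loess, 2 higher and 3 lower, against 26.2% of all rows (12.6% higher, 13.6% lower). Egr2 was lower, at −3.35 ± 0.35 (adjusted p = 0.00038, limma), Klf4 at −3.35 ± 0.41 (adjusted p = 0.00092, limma) and Atf3 at −3.61 ± 0.53 (adjusted p = 0.0022, limma), as log2 differences. The Atf3 difference is a lower bound, since its level of 4.0 lay below the median of all loess values, 4.55. Socs3 row 10393449 was higher by 4.46 ± 0.63 (adjusted p = 0.0018, limma), and row 10383010 by 2.66 ± 0.84 without passing the test (adjusted p = 0.055, limma). Hspa1a was higher by 1.54 ± 0.20 (adjusted p = 0.0011, limma), against 0.19 (adjusted p = 0.44, limma) as deposited.

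**Figure D4:**
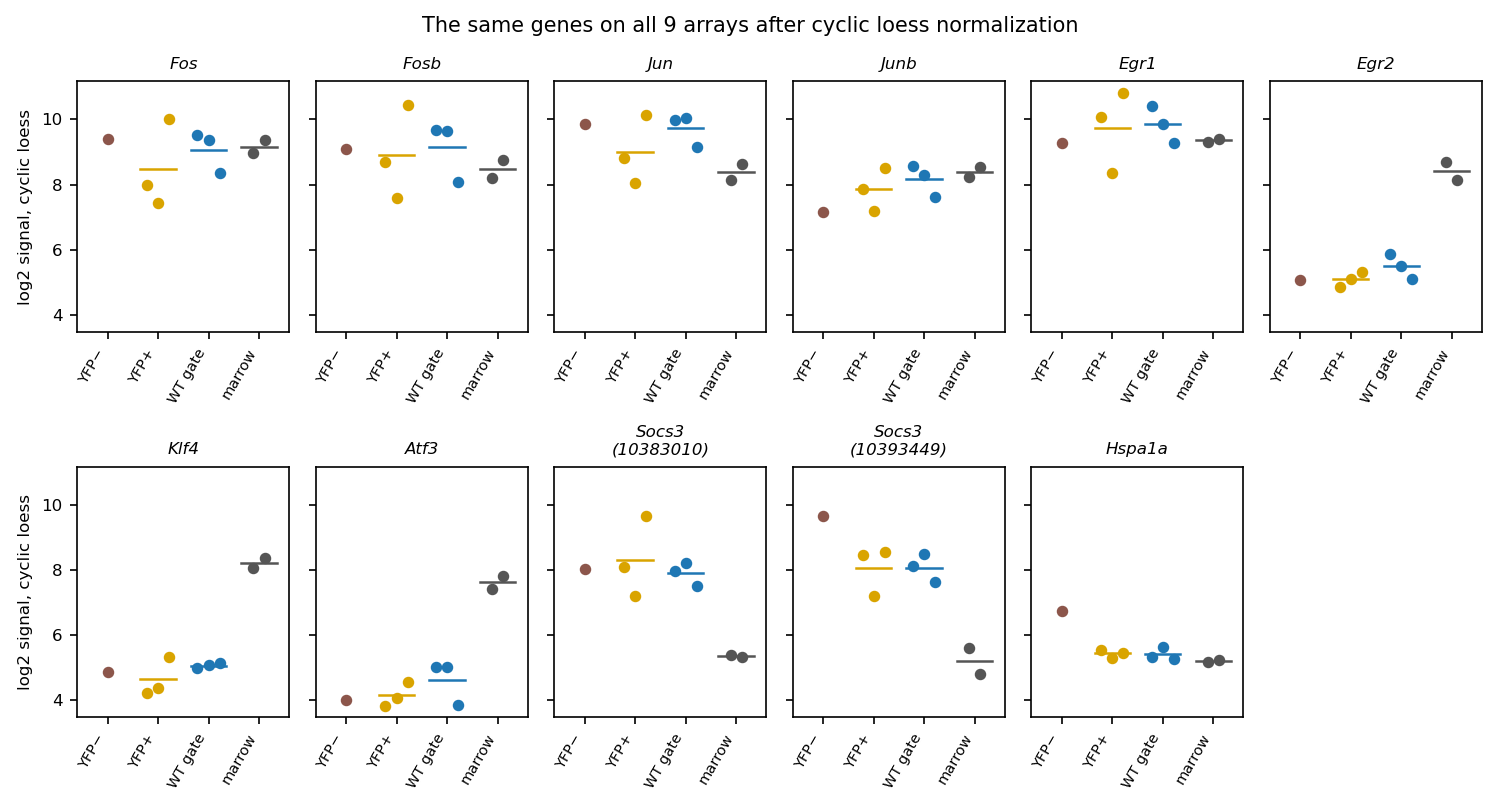
Log2 signal after cyclic loess normalization of the 9 arrays (vertical axis) for the 11 member rows, by group: YFP-negative (YFP−, 1 array), YFP-positive (YFP+), wild-type CD54+BP1+ (WT gate) and total marrow; lines are means of groups with more than 1 array. The YFP-negative array lies inside the YFP-positive range for 8 of 11 rows (for 62.2% of all rows it lies outside), and for Hspa1a it lies at 6.73, above all 8 other arrays.

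Genes of the same response and of the pathways around it were read from fixed lists. Against total marrow, 8 of 20 other immediate early transcription factors were lower and 0 higher in YFP-positive cells, and 7 were lower and 1 higher in wild-type CD54+BP1+ cells. Of all rows, 18.5% were lower and 11.0% higher in YFP-positive cells, and 13.9% lower and 10.4% higher in wild-type CD54+BP1+ cells. Nr4a1, an orphan nuclear receptor induced with Fos, was lower, at −3.34 ± 0.59 in YFP-positive cells and −3.72 ± 0.59 in wild-type CD54+BP1+ cells (adjusted p = 0.0041 and 0.0024, limma). Csrnp1 was lower, at −2.55 and −3.05, Fosl1 at −2.50 and −2.76, and Fosl2, another Fos family gene, at −1.59 and −2.20, in the same order of groups. The Fosl1 differences are lower bounds, at sorted means of 3.87 and 3.61. The list's median difference was −0.48 in YFP-positive cells and −0.46 in wild-type CD54+BP1+ cells, beside 0.09 and 8.6e-05 over all rows. Without total marrow replicate 1 or 2 the count in YFP-positive cells was 5 and 4, and without replicate 2 the count in wild-type CD54+BP1+ cells was 5.

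Other immediate early genes went both ways. Against total marrow, 12 of 27 were lower and 4 higher in YFP-positive cells, and 8 were lower and 6 higher in wild-type CD54+BP1+ cells. The shares called were 59.3% and 51.9%, against 29.5% and 24.3% of all rows. Ccn1 and Ccn2, secreted matrix proteins of the CCN family, were higher by 7.01 ± 0.41 and 5.76 ± 0.28 in YFP-positive cells and by 7.14 ± 0.41 and 6.30 ± 0.28 in wild-type CD54+BP1+ cells. Errfi1, a feedback inhibitor of the EGF receptor, was higher by 5.22 and 5.29 in these groups, and Ptgs2, the inducible cyclooxygenase, was lower, at −4.98 and −5.21. The differences of Ptgs2, at sorted means of 3.85 and 3.61, and of Ccn1, at a marrow mean of 3.98, are lower bounds. The adjusted p of these 4 genes was at most 9.5e-06 in either comparison (limma). Leaving out total marrow replicate 1 or 2 left 7 and 7 genes of the list called in YFP-positive cells and 6 and 7 in wild-type CD54+BP1+ cells, and leaving out wild-type CD54+BP1+ replicate 1 left 9 there.

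Feedback genes of the MAP kinase pathway, which induces Fos and Egr1, also went both ways. Against total marrow, 5 of 14 were lower and 4 higher in YFP-positive cells, and 3 were lower and 4 higher in wild-type CD54+BP1+ cells. The shares called were 64.3% and 50%, against 29.5% and 24.3% of all rows. Spry1, a Sprouty inhibitor, was higher by 3.83 ± 0.27 and 3.80 ± 0.27, and Dusp2, a nuclear phosphatase, was lower, at −3.04 ± 0.22 and −3.46 ± 0.22, in YFP-positive and wild-type CD54+BP1+ cells. The Dusp2 differences are lower bounds, at sorted means of 4.11 and 3.69. Dusp1, a phosphatase that is itself an immediate early gene, was lower, at −2.42 ± 0.49 in YFP-positive cells (adjusted p = 0.0078, limma), and without total marrow replicate 1 its adjusted p was 0.062 and the list's count was 5. Of 12 measured factors upstream (SRF, its cofactors, CREB and the kinases), 3 were lower and 1 higher in YFP-positive cells, and 2 were lower and 0 higher in wild-type CD54+BP1+ cells. These shares of 33.3% and 16.7% lie near or under the 29.5% and 24.3% of all rows. Leaving out total marrow replicate 1 or 2 brought these upstream counts to 0 and 1 in YFP-positive cells and to 0 and 0 in wild-type CD54+BP1+ cells, and leaving out wild-type CD54+BP1+ replicate 3 brought the second to 1.

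Around Socs3, genes of the gp130 pathway and the SOCS family also went both ways. Against total marrow, 18 measured genes held 5 that were higher and 3 that were lower in YFP-positive cells, and 6 were higher and 3 lower in wild-type CD54+BP1+ cells. The shares called were 44.4% and 50%, against 29.5% and 24.3% of all rows. Lifr, the receptor chain for leukaemia inhibitory factor, was higher by 5.98 ± 0.17 and 5.92 ± 0.17 in these groups, Osmr, the oncostatin M receptor, by 5.58 ± 0.42 and 5.06 ± 0.42, and Socs2, another SOCS gene, by 4.02 ± 0.38 and 4.57 ± 0.38. Osm, which encodes oncostatin M, was lower, at −4.65 ± 0.17 and −4.84 ± 0.17. The differences of Osm (sorted means of 3.29 and 3.10), Osmr (marrow mean of 3.32) and Socs2 (marrow mean of 4.39) are lower bounds. Each of these 4 genes had an adjusted p of at most 0.00014 in either comparison (limma).

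Against total marrow, 6 of 17 measured heat shock chaperones other than Hspa1a were lower and 3 higher in YFP-positive cells, and 4 were lower and 4 higher in wild-type CD54+BP1+ cells. The shares called were 52.9% and 47.1%, against 29.5% and 24.3% of all rows. Hspb1, the small heat shock protein HSP27, was higher by 1.99 ± 0.31 and 2.47 ± 0.31, and Hspa4l, an HSP110 family chaperone, was lower, at −2.20 ± 0.12 and −2.22 ± 0.12, in YFP-positive and wild-type CD54+BP1+ cells. The Hspa4l differences are lower bounds, at sorted means of 3.83 and 3.81. The count in wild-type CD54+BP1+ cells was 5 without their replicate 1 or 3, and 3 without either total marrow array. In the YFP-negative array after loess, 3 of 17 were called higher and 0 lower than in YFP-positive cells, against 4.10% of all rows, and the list's median difference was 0.94, against 0.02 over all rows. Hspb1 was higher by 2.16 ± 0.38 (adjusted p = 0.030), the mitochondrial chaperonin Hspd1 by 1.73 ± 0.34 (adjusted p = 0.039) and the HSP40 family gene Dnajb4 by 1.73 ± 0.30 (adjusted p = 0.029; limma for each). These calls were lost, with a count of 0, when wild-type CD54+BP1+ replicate 2 or 3 or either total marrow array was left out, and the count was 5 without YFP-positive replicate 1. As deposited their adjusted p was 0.061, 0.082 and 0.10. In the other lists the YFP-negative array had Myc (1.89 ± 0.33), Nr4a2 (0.86 ± 0.18) and Spred2 (0.93 ± 0.17) called higher than YFP-positive cells. Tnfaip3 (−1.42 ± 0.27) and Socs6 (−1.92 ± 0.38) were called lower (adjusted p of these 5 genes from 0.029 to 0.048, limma). The Nr4a2 and Socs6 differences are lower bounds. None of these 5 calls remained when total marrow replicate 1 or replicate 2 was left out. Over all 17 alternatives Nr4a2 kept its call in 2, Tnfaip3 and Socs6 in 8 each, Spred2 in 9 and Myc in 11.

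In the integrated stress and unfolded protein response, to which Atf3 belongs, 4 of 15 genes were higher and 1 lower in each sorted group than in total marrow. That share of 33.3% lies near the 29.5% and 24.3% of all rows. Asns, asparagine synthetase, was lower, at −3.23 ± 0.27 in YFP-positive cells and −3.06 ± 0.27 in wild-type CD54+BP1+ cells. The endoplasmic reticulum proteins Pdia4 and Hspa5 (BiP) were higher by 1.65 ± 0.19 and 1.10 ± 0.16 in YFP-positive cells, and by 1.54 ± 0.19 and 1.21 ± 0.16 in wild-type CD54+BP1+ cells. Without YFP-positive replicate 2 the count in YFP-positive cells was 8. Between YFP-negative and YFP-positive cells 0 of 15 were called by limma, with 1 called when YFP-positive replicate 2 or 3 was left out.

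The rows most like the members over the 8 arrays without the YFP-negative one were taken by Pearson correlation among 12967 rows of sufficient level, as a description. The levels of Klf4 ran closest to those of Dnmt1 (r = 0.998), those of Egr2 to Neu1 (r = 0.996) and those of Atf3 to Zyx (r = 0.992), where the points mainly separate sorted cells from marrow. Socs3 row 10393449 ran closest to Fuca1 (r = 0.991) and row 10383010 to Ggt7 (r = 0.995). After group means were subtracted, Fos ran closest to Btg2 (r = 0.997), an antiproliferative immediate early gene, which was also among the 27 genes above. Fosb then ran closest to Exoc6 (r = 0.9958), Jun to Defb25 (r = 0.9984), Junb to Anxa6 (r = 0.9956) and Egr1 to Mast3 (r = 0.9935). None of these is on the lists used here, so nearness did not single out immediate early genes.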

How the data were processed

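The deposited table holds log2 values, made by the authors with RMA in Affymetrix Expression Console 1.3.1 per the submitters' processing notes, 1 per transcript cluster and array. Whether the 9 arrays were summarised together is not given in the sources used here. Of 35556 rows, the 21789 with 1 gene symbol in the platform annotation were tested, with no filter on signal; 1621 rows have several symbols and 12146 have none. For genes on other lists with several rows, the row with the highest mean was used. The fit was limma 3.58.1 in R 4.3.3 (a mean per group, all 9 arrays, default eBayes), two-sided, with Benjamini-Hochberg adjustment over the tested rows. It had 5 residual degrees of freedom, with 2.5 prior ones on deposited values and 2.25 after cyclic loess. Comparisons with the YFP-negative array used the 9 arrays after cyclic loess. The fit was tested on simulated data of 21789 rows with 200 changed: for YFP-positive cells against total marrow it recovered 85% of changes of 2 log2 units and 38.5% of 1 unit, for YFP-positive against wild-type CD54+BP1+ cells 90.5% and 51%, for YFP-negative against YFP-positive cells 69% and 10.5%, and for YFP-negative cells against total marrow 73% and 0%. The simulated rows were drawn from the deposited values, also for the YFP-negative comparisons, which were made after cyclic loess. Far fewer rows were changed than were called against total marrow, which moves the adjusted p threshold. These shares therefore check the fit and do not give the recovery of the tests made.

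The members, lists, tests and alternatives were chosen with earlier results of these data known. All members were named in every comparison; from each other list the up to 4 called genes with the largest change were eligible, or the 2 with the smallest p where none was called, and Zfp36, Lepr and Cxcl12 are named as examples of their lists. Promoter windows came from RefSeq (GRCm38.p6). Array values carry no read depth; precision is set by how many arrays a group has. The alternatives were other normalizations, a filter on dim rows, every row of the table, a trended robust prior, array weights, no moderation, the replicate number as a block, and leaving out single arrays.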

Additional observations from a re-analysis of the deposited data

How the results depend on the processing

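Over the alternatives, 939 of 968 member values kept their direction and their side of the threshold; 14 lost the call, 14 gained it and 1 reversed. The number of member rows called in YFP-positive cells against total marrow was 3 to 6 when single arrays were left out, 3 without total marrow replicate 2. It was 4 to 5 in wild-type CD54+BP1+ cells against total marrow, 0 throughout between YFP-positive and wild-type CD54+BP1+ cells, 1 throughout between YFP-negative and YFP-positive cells, and 5 to 6 between YFP-negative cells and total marrow. Between YFP-negative and YFP-positive cells it was 4, all lower, with deposited values, 0 without moderation and 0 with the replicate number as a block, where Hspa1a had an adjusted p of 0.963, 0.051 and 0.099. With deposited values Klf4 reversed to −1.07 (adjusted p = 0.031), Nr4a2 to −0.33 and Spred2 to −0.065 in that comparison, and Mapk9 to −0.53 between YFP-negative cells and total marrow; the median of all rows was then −0.91 between YFP-negative and YFP-positive cells. Array weights brought Fos (−1.66, adjusted p = 0.040) and Junb (−1.18, adjusted p = 0.029) to a call in YFP-positive cells against total marrow.

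Over all rows, calls ranged over the alternatives from 3636 to 7470 between YFP-positive cells and total marrow (6422 as reported), 3398 to 7022 between wild-type CD54+BP1+ cells and total marrow (5291), 0 to 26 between YFP-positive and wild-type CD54+BP1+ cells (0), 5 to 16522 between YFP-negative and YFP-positive cells (894) and 3796 to 15666 between YFP-negative cells and total marrow (5714). Same-numbered YFP-positive and wild-type CD54+BP1+ arrays deviated with correlations of −0.058 to −0.007 over 3 pairs, and other-numbered pairs of these groups with −0.12 to 0.159. With so few arrays, whose deviations cancel within a group, this cannot tell whether the numbers mark a shared batch. The replicate block left 5, 4, 0, 0 and 5 member rows called in the 5 comparisons, in the order above. The cause of these changes was not tested. Signals near the median of all values limit how small a level can be resolved.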
